A study of Arabidopsis thaliana with 20 samples.

Results

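The pectate lyase-like genes AT3G27400 and AT1G04680 were measured in giant cells and control root cells cut from Arabidopsis thaliana roots by laser, with RNA amplified by either of 2 kits. They are 2 of the 13355 genes that the array's annotation lists singly with a probe set, and each has 1 probe set, 257735_at for AT3G27400 and 264611_at for AT1G04680. AT3G27400 was chosen by its higher signal in giant cells over both kits, and AT1G04680 by its lower signal with One-Direct than with Pico, a contrast already described for AT3G27400 too. The values of those contrasts are therefore given as descriptions with no test. The giant cell contrast of AT1G04680, the kit-by-cell-type difference of both genes and the values of other pectin genes did not enter the choice, and these were tested. Both passed a filter on dim signals, which asked for a signal above the array's median in at least 3 of 12 samples. AT3G27400 did so in 6, of which 1 was with One-Direct and 5 with Pico. AT1G04680 did so in 9, of which 3 were with One-Direct and 6 with Pico.

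All plants were of the Columbia ecotype, and 3-week seedlings received 1000 juveniles of Meloidogyne incognita, a root-knot nematode, 21 days before capture. The 4 groups were giant cells with WT-Ovation One-Direct, control cells with One-Direct, giant cells with WT-Ovation Pico and control cells with Pico, each of 3 biological samples on 5 arrays, because 1 sample of each group was split over 3 technical arrays. About 80 giant cells, with an area of 5000000 square micrometres, made a sample, whereas control samples held about 150 cells and 13000000 square micrometres and came from uninfested stretches of infested roots, so cell type and captured amount cannot be told apart. Captured cells went directly into lysis buffer for One-Direct, whereas RNA was first purified for Pico, so kit and isolation cannot be told apart. The labels do not tie samples to plants, so the p-values reflect sample-to-sample spread alone, which may be partly technical. Of 29 marker genes of root cell types and of giant cells, only 3 were named in the array annotation used. That annotation lists no gene for 8730 of 22746 gene probe sets, so the other markers could not be looked up. The cortex gene AT1G62500 and the root hair expansin EXPA7 were too dim for the tests, and LBD16, a transcription factor of lateral root initiation known from giant cell formation, did not pass between giant and control cells (log2 change -0.21, limma adjusted p = 0.771). The labelled cell types therefore could not be checked against their markers here, and in such pooled captures fewer cells of a type and less RNA per cell cannot be told apart.

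Pectin is the galacturonic acid-rich polymer that fills the matrix of the primary cell wall and the layer between cells. Pectin methylesterases strip methyl groups from it, after which pectate lyases cut the demethylated chain by elimination and polygalacturonases cut it by hydrolysis. Giant cells enlarge greatly while their walls are remodelled, and AT3G27400 (also called PLL18) and its relative AT4G24780 (PLL19) are known from work on nematode feeding sites in Arabidopsis roots.

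Values are linear array signals, with a trimmed mean of about 500 on each array as deposited, and changes are differences of log2(signal + 16), which understate the change of dim genes. A sample on 3 technical arrays is given as their mean on that log2 scale, turned back to a signal. Signals of 1 probe set are compared between samples only, never with those of another gene. AT3G27400 had signals of 570, 273 and 279 in the giant cell samples with One-Direct, against 28.3, 94.8 and 36.7 in the control samples with One-Direct. All 3 giant cell samples thus lay above all 3 control samples. With Pico the signals were 387, 1268 and 220 in giant cells, against 181, 511 and 482 in control cells. Here the groups overlapped: giant cell sample 2 was the highest of the 6, and the other giant cell samples lay between control sample 1 and the higher control samples. The Pico change of AT3G27400 given next rested on single samples, being -0.27 without giant cell sample 2 and -0.05 without control sample 1.

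On the log2 scale AT3G27400 averaged 8.53 ± 0.58 in giant cells and 5.99 ± 0.70 in control cells with One-Direct, and 8.96 ± 1.25 in giant cells and 8.54 ± 0.80 in control cells with Pico (SD, n = 3 each). The giant cell change was 2.53 (SE 0.63) with One-Direct and 0.41 (SE 0.63) with Pico, which gave 1.47 (SE 0.44) over both kits, a 2.78-fold higher signal. All probe sets together were shifted by a median of 0.24 over both kits, so the change of AT3G27400 was 1.24 relative to them, and it lay at percentile 96.8 of the changes of the 14652 probe sets kept by the filter. Of those probe sets 19.6% passed limma's test at an adjusted p under 0.05, 10.5% higher and 9.04% lower in giant cells, and nothing is read from the place of AT3G27400 among them. The share of higher among all called probe sets was 53.8%, and it dropped to 42.3% under quantile normalisation and 33.7% under median centring of the arrays.

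The difference between the kits in the giant cell effect was tested for AT3G27400 and did not pass (One-Direct minus Pico 2.12, SE 0.88, limma adjusted p = 0.481). Its 95% confidence interval ran from 0.21 to 4.03, and 0.0205% of all probe sets passed that test. In order of level, giant cells with Pico came first, then control cells with Pico and giant cells with One-Direct, and these 3 means lay within their SDs of each other. Control cells with One-Direct came last, 2.53 log2 units under the next group, and every one of their samples lay below every sample of giant cells with One-Direct and of control cells with Pico. Both the cell type difference with One-Direct and the kit difference in control cells are measured against that 1 group.

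AT1G04680 had signals of 666, 252 and 269 in giant cells with One-Direct, against 18.0, 226 and 455 in control cells with One-Direct. Control sample 1 was by far the lowest of these 6, while control sample 3 lay above 2 giant cell samples, so the groups overlapped. With Pico it had 1414, 2847 and 955 in giant cells, against 1475, 2470 and 3799 in control cells, and these groups overlapped as well.

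Its log2 signal averaged 8.55 ± 0.75 in giant cells and 7.29 ± 1.97 in control cells with One-Direct, and 10.63 ± 0.79 in giant cells and 11.24 ± 0.68 in control cells with Pico (SD, n = 3 each). AT1G04680 did not pass between giant and control cells over both kits (log2 change 0.32, SE 0.57, limma adjusted p = 0.726, 95% confidence interval -0.91 to 1.55). With One-Direct its change was 1.25 (SE 0.80, limma adjusted p = 0.36), where 5.64% of probe sets passed, and with Pico it was -0.61 (SE 0.80, limma adjusted p = 0.715), where 9.49% passed. Without control One-Direct sample 1 the change over both kits was -0.23 in place of 0.32, and with One-Direct it was 0.15 in place of 1.25, so that sample set the sign of the first and most of the size of the second. The test of the difference between the kits did not pass (1.86, SE 1.14, limma adjusted p = 0.677, 95% confidence interval -0.59 to 4.31).

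**Figure D1:**
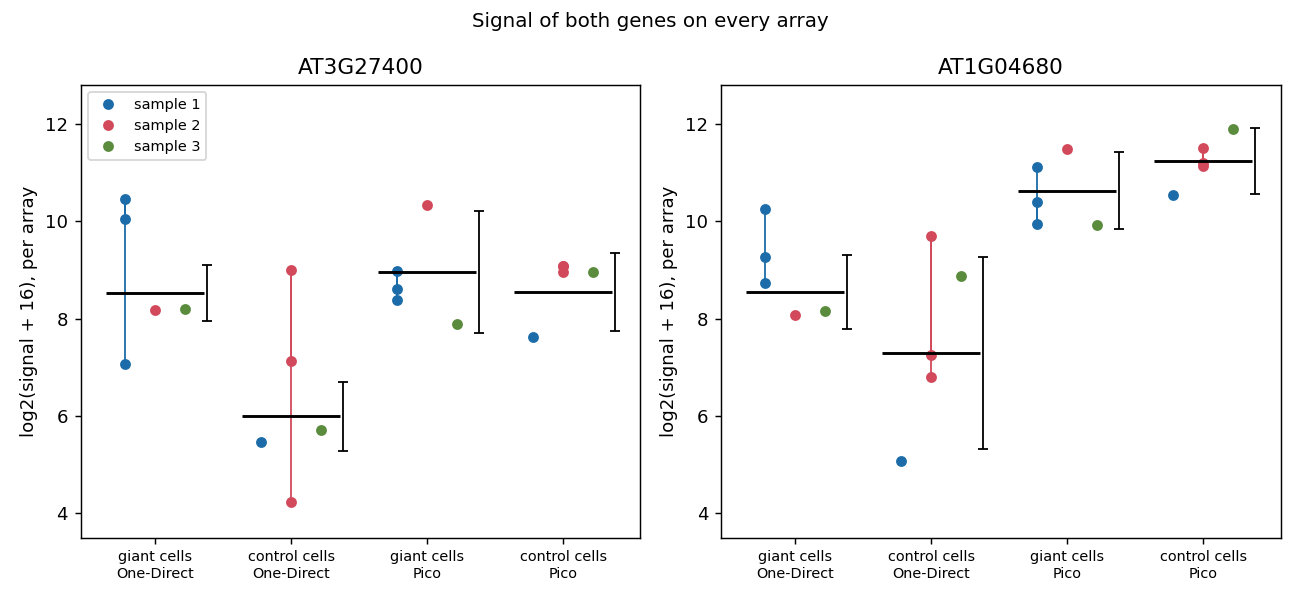
Signal of AT3G27400 (left) and AT1G04680 (right) on each of the 20 arrays, as log2(signal + 16), in the 4 groups. Points are arrays, a thin line joins the 3 technical arrays of a split sample, the thick bar is the mean of 3 samples and the error bar its SD. AT3G27400 was lowest in control cells with One-Direct (mean 5.99). All samples of AT1G04680 with Pico lay above those with One-Direct, though single arrays overlapped in giant cells.

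Set by kit, AT1G04680 was low with One-Direct in both cell types. Every One-Direct sample lay below every Pico sample, in giant cells and in control cells. Single arrays overlapped in giant cells. Technical array 1 of One-Direct sample 1 read 1201, against 976 on technical array 2 of Pico sample 1 and 955 in Pico sample 3. The log2 difference of One-Direct from Pico was -3.01 (SE 0.57) over both cell types, an 8.08-fold lower signal, with -2.08 (SE 0.80) in giant cells and -3.95 (SE 0.80) in control cells. Over all probe sets the median difference was -0.09. AT3G27400 differed by -1.49 (SE 0.44) over both cell types, by -0.43 (SE 0.63) in giant cells and by -2.55 (SE 0.63) in control cells, so its samples overlapped between the kits in giant cells and were parted in control cells. Between the kits 34.3% of probe sets passed limma's test, 18.0% higher and 16.3% lower with One-Direct, and by the choice of these genes nothing is read from their place among them. Of the called probe sets 52.4% were higher with One-Direct, and 31.2% with median centring. By kit, the share of probe sets with a signal under 16 ran from 1.12% to 12.3% on One-Direct arrays and from 13.9% to 19.4% on Pico arrays; its part in these differences was not tested.

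The technical arrays show how firmly a single One-Direct value stands. AT3G27400 had signals of 1045, 1395 and 119 on the 3 arrays of giant cell sample 1 with One-Direct, and of 125, 494 and 2.87 on the 3 arrays of control sample 2 with One-Direct. The lowest and highest arrays of the same sample differed by 10.5-fold in giant cells and by 27.0-fold in control cells on the scale with 16 added, which is more than the 5.78-fold difference of the group means. The spread over these arrays was 1.85 log2 units (SD) for giant cells and 2.40 for control cells, against medians of 0.39 and 0.65 over kept probe sets, which put AT3G27400 at percentiles 99.7 and 99.2.

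With Pico the same gene was steady between technical arrays: its signals were 316, 488 and 376 in giant cell sample 1, against 526, 527 and 482 in control sample 2. The SDs were 0.30 in giant cells and 0.07 in control cells, against medians of 0.29 for either sample over kept probe sets. The Pico samples of giant cells nevertheless spread more than most genes, with an SD of 1.25 over 3 samples against a median of 0.31, at percentile 98.5. AT1G04680 had smaller technical SDs than AT3G27400 with One-Direct, with 1201, 596 and 409 in giant cell sample 1 (SD 0.77) and 137, 815 and 95.0 in control sample 2 (SD 1.56). With Pico it had 1324, 976 and 2186 in giant cell sample 1 (SD 0.58) and 2336, 2877 and 2242 in control sample 2 (SD 0.19). Its SD over the 3 control samples with One-Direct, 1.97, stood at percentile 95.5.

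**Figure D2:**
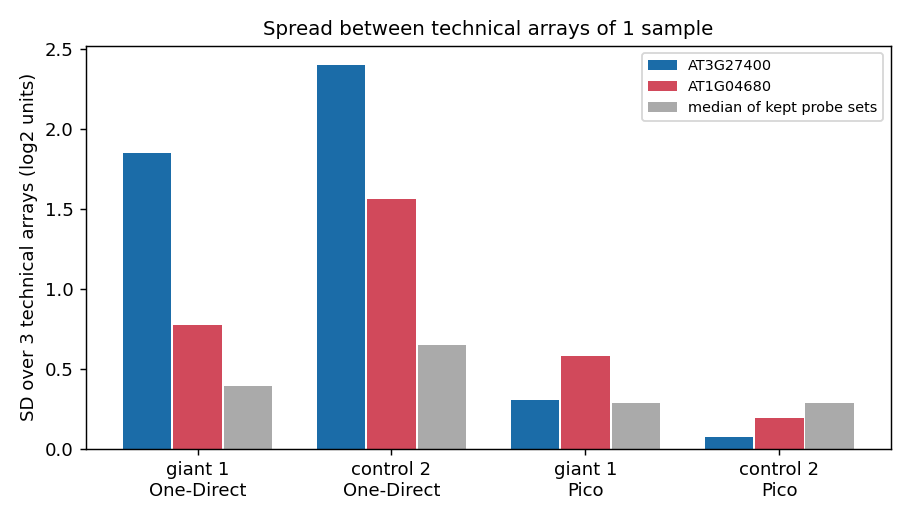
Standard deviation of log2(signal + 16) over the 3 technical arrays of the split sample of each group, for AT3G27400, for AT1G04680 and as the median of all kept probe sets. AT3G27400 reached 1.85 and 2.40 with One-Direct and stayed at 0.30 and 0.07 with Pico.

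The One-Direct libraries also differed more among themselves. Their mean r with the other samples of their group was 0.618 to 0.797 over kept probe sets, lowest for giant cell sample 1 (0.747) among giant cells and for control sample 1 (0.618) among control cells, while Pico samples reached 0.907 to 0.951. With sample 1 of each One-Direct group left out, the fit gave giant cell changes of 1.17 for AT3G27400 over both kits and of -0.45 for AT1G04680 (limma adjusted p = 0.39). The kit differences were then -1.53 for AT3G27400 and -2.68 for AT1G04680. The log2 ratio of the 3' to the 5' control probe sets of GAPDH, an array control read as a sign of RNA quality, averaged 2.24 ± 0.18 in giant cells and 3.36 ± 0.92 in control cells with One-Direct, and 1.20 ± 0.16 in giant cells and 2.33 ± 0.20 in control cells with Pico (SD, n = 3 each). Control sample 1 with One-Direct had 4.42, against 2.73 in sample 2 and 2.93 in sample 3 of that group. The ratio moved with both cell type and kit, and its part in the results was not tested.

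The 2 genes varied together in part. Over the 12 biological samples their log2 signals correlated at r = 0.748 (Spearman's rho 0.678), and after group means were taken off at r = 0.611 (rho 0.825), a description over samples that share kit and array scaling. In giant cells with Pico, sample 2 was the highest and sample 3 the lowest for both genes, and with One-Direct giant cell sample 1 was the highest for both. Among 8164 other kept probe sets listed with 1 gene, those most like AT3G27400 over the 12 samples were NCLPP7 (r = 0.927), a subunit of the Clp protease, AT3G14430 (0.918), AT2G20930 (0.907), the ubiquitin protease UBP25 (0.899) and the cyclophilin AT4G34960 (0.897). Their giant cell changes over both kits ran from 0.38 for AT3G14430 to 1.20 for AT2G20930, a description with no test, since their likeness to AT3G27400 chose them. For AT1G04680 they were AT2G19740 (0.958), a ribosomal protein L31, AT1G13380 (0.949), AT5G28060 (0.948), a ribosomal protein S24, AT5G48500 (0.947) and AT3G25290 (0.945). Their kit differences ran from -1.73 for AT5G48500 to -0.92 for AT1G13380 and their giant cell changes from -0.18 for AT3G25290 to 0.58 for AT5G48500, likewise with no test. A correlation above 0.9 was reached by 3 probe sets for AT3G27400 and by 86 for AT1G04680.

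For 27 family genes the array's annotation names 23, and 15 of these passed the filter, both genes described above among them. Of the other 13, AT3G55140 rose in giant cells over both kits, 12 did not pass and 0 fell in limma's test, shares near those of all probe sets (10.5% higher and 9.04% lower). Their median change was 0.08, against 0.24 for all probe sets, and their changes ran from -0.75 to 0.91; a further probe set of AT5G04310 that these figures leave out had 1.88. The 8 family genes left out by the filter were dim, with a highest group mean signal between 85.6 and 194 each.

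AT3G55140 had signals of 1178, 1650 and 1066 in giant cells and 592, 581 and 396 in control cells with One-Direct, and of 694, 690 and 1112 in giant cells and 553, 680 and 454 in control cells with Pico. All giant cell samples lay above all control samples within each kit, though by little with Pico. Its log2 change was 0.91 (SE 0.25, limma adjusted p = 0.0248), and the call was lost with median centring (0.70, limma adjusted p = 0.0974) and without giant One-Direct sample 2, giant Pico sample 3, control Pico sample 1 or control Pico sample 3.

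AT5G04310 is measured by 2 probe sets that disagreed in size. For 245706_at the signals were 1507, 1193 and 1187 in giant cells and 925, 758 and 764 in control cells with One-Direct, and 1877, 1202 and 1241 in giant cells and 1139, 436 and 800 in control cells with Pico. Every giant cell sample lay above every control sample within each kit, and its change of 0.79 did not pass (SE 0.27, limma adjusted p = 0.0594). For 245708_at they were 278, 231 and 293 in giant cells and 220.5, 80.6 and 107 in control cells with One-Direct, and 683, 545 and 519 in giant cells and 72.2, 97.8 and 51.1 in control cells with Pico, with no overlap in either kit. The changes of 245708_at were 1.88 over both kits (SE 0.27) and 2.76 with Pico. It lay above the array's median in 2 One-Direct and 3 Pico samples, the Pico ones all giant cells. It thus met the filter only through giant cells, where it was high, so these changes are descriptions with no test. The probe set with the higher mean, 245706_at, stood for the gene in the counts.

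AT3G07010 had a change of 0.86 (SE 0.47, limma adjusted p = 0.217), and its giant cell samples lay above the control samples with One-Direct and among them with Pico. AT4G24780, the relative of AT3G27400 named here after its values were seen, did not differ detectably (0.06, SE 0.51, limma adjusted p = 0.946). It had 2974, 383 and 395 in giant cells and 443, 888 and 1304 in control cells with One-Direct, and 1627, 2893 and 1450 in giant cells and 894, 2937 and 1799 in control cells with Pico. With One-Direct its giant cell sample 1 lay above the other One-Direct samples, as it did for AT3G27400 and AT1G04680. AT5G48900, also named after its values were seen, had the widest gap between the kits in the giant cell change among the 15 genes. It had 120, 420 and 341 in giant cells and 155, 338 and 9.67 in control cells with One-Direct, and 9.57, 72.8 and 123 in giant cells and 461, 382 and 507 in control cells with Pico. Its changes of 1.26 with One-Direct (limma adjusted p = 0.385) and -2.77 with Pico (0.0606) did not pass. Neither did the difference between the kits (4.02, SE 1.20, limma adjusted p = 0.269). It lay above the array's median in 3 One-Direct and 3 Pico samples, the Pico ones all controls. With Pico it thus met the filter only through control cells, so nothing is read from its Pico change or from that difference.

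Between the kits, leaving out AT3G27400 and AT1G04680, 4 of the 13 kept family genes passed limma's test, named here after their values were seen. AT3G24230 (3.02, SE 0.41) and AT1G14420 (2.20, SE 0.50), known as AT59 from pollen, were higher with One-Direct, but lay above their array's median in 5 and 3 One-Direct samples and in 0 Pico samples. They passed the filter on dim signals only through the kit in which they were high, so no count is read from them. AT2G02720 was also higher with One-Direct (1.71, SE 0.32). It lay above the median in 6 One-Direct samples but in 1 Pico sample, so the same limit holds and no test is read from it. AT3G53190 was lower with One-Direct (-1.62, SE 0.50, limma adjusted p = 0.0221). Of all probe sets 18.0% were higher and 16.3% lower. Kit differences of the kept family genes spanned -3.01 for AT1G04680 to 3.02 for AT3G24230. Nothing is read from this range, since this contrast chose AT1G04680 and AT3G24230 passed the filter only through One-Direct. The giant cell effect was larger with One-Direct than with Pico in 10 of the 13 genes (76.9%), beside 60.8% of all probe sets. In limma 0 of the 13 passed the test of that difference (1 at an unadjusted p under 0.05), so nothing is read from this share.

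**Figure D3:**
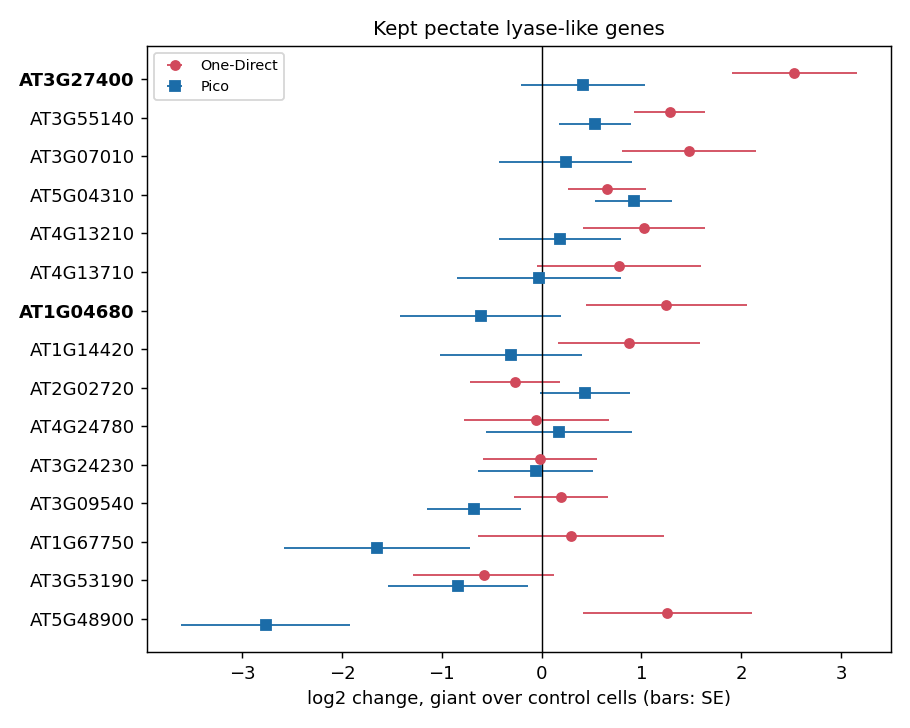
Log2 change of giant over control cells for the 15 kept pectate lyase-like genes, with One-Direct (circles) and Pico (squares); bars are SEs from limma. AT3G27400 had the highest One-Direct change, 2.53, beside 0.41 with Pico, and AT5G48900 the lowest Pico change, -2.77.

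The 6 further lists, of other genes that act on pectin, had 41 genes with a named probe set, of which 22 passed the filter, and 1 of these rose and 4 fell over both kits, beside 10.5% and 9.04% of all probe sets, with a median change of -0.03 against 0.24 for all probe sets. The calls ran in opposite directions by kit: with One-Direct 2 of the 22 passed as higher and 0 as lower (3.54% and 2.10% of all probe sets), and with Pico 0 passed as higher and 5 as lower (2.43% and 7.06%). The difference between the kits itself passed limma's test in 0 of the 22 (6 at an unadjusted p under 0.05), so the kits are not shown to differ. Pectin methylesterases, which prepare the substrate of pectate lyases, had 2 of 5 kept genes lower and 0 higher, with a median of -1.13. Both lower genes, AT1G02810 and PMEPCRF, met the filter on dim signals only through control cells, where they were high. Neither this count nor the counts of lower genes above are therefore read as a result. AT1G02810 had 189, 271 and 465 in giant cells and 307, 2366 and 1028 in control cells with One-Direct, and 29.1, 59.6 and 131 in giant cells and 762, 598 and 992 in control cells with Pico. It was lower by 2.46 log2 units (SE 0.46), a description with no test. All its giant cell samples lay below the control samples in Pico, and 2 of 3 did so in One-Direct.

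PMEPCRF (AT5G53370) was lower by 1.42 (SE 0.45), with changes of 0.20 in One-Direct and -3.03 in Pico. Its call over both kits was lost in 12 of 22 other settings. It lay above the array's median in 2 One-Direct and 3 Pico samples, the Pico ones all controls. It too met the filter only through control cells, so no test is read from it. With Pico alone 3 of the 5 passed as lower: AT1G02810, PMEPCRF and AT3G49220, where 7.06% of all probe sets were lower. From AT1G02810 and PMEPCRF no test is read, for the same reason. The call of AT3G49220 (limma adjusted p = 0.0433) was lost in 14 of 24 other settings. AT3G49220 (-1.13, limma adjusted p = 0.0526), AT3G43270 (-0.74, adjusted p = 0.203) and PME61 (0.81, adjusted p = 0.163) did not pass over both kits. AT1G62770, the 1 kept inhibitor of pectin methylesterases, fell as well, by 1.46 (SE 0.29, limma adjusted p = 0.00409). It had 290, 275 and 317 in giant cells, against 860, 510 and 696 in control cells with One-Direct, and 66.0, 177 and 77.1 in giant cells, against 316, 533 and 299 in control cells with Pico, with no overlap in either kit.

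Polygalacturonases had 1 of 9 kept genes lower and 0 higher, beside 9.04% and 10.5% of all probe sets, with a median of 0.09. AT4G33440 fell by 1.45 (SE 0.30, limma adjusted p = 0.00558) and had 1220, 995 and 609 in giant cells, against 2106, 1627 and 2562 in control cells with One-Direct, and 126, 256 and 97.2 in giant cells, against 570, 382 and 652 in control cells with Pico. AT3G61490 (0.61, limma adjusted p = 0.126), AT5G41870 (0.55, adjusted p = 0.158) and AT2G43880 (-0.68, adjusted p = 0.459) did not pass over both kits. With One-Direct alone AT3G61490 rose by 1.64 (limma adjusted p = 0.0268, lost in 8 of 24 other settings), with 111, 142 and 222 in giant cells, against 29.3, 66.6 and 26.3 in control cells. It lay above the array's median in 0 One-Direct and 6 Pico samples, so this call rests on dim signals. With Pico it had 214, 233 and 252 in giant cells, against 300, 397 and 270 in control cells, so its giant cell samples lay above the control samples with One-Direct and below them with Pico (Pico change -0.43, limma adjusted p = 0.559). Of 4 pectin acetylesterases, which remove acetyl groups, 1 passed as higher and 0 as lower, beside 10.5% and 9.04% of all probe sets. AT3G09410 rose by 1.74 (SE 0.48, limma adjusted p = 0.0231). Its signals were 412, 209 and 320 in giant cells and 1.502, 166 and 12.2 in control cells with One-Direct, and 580, 314 and 508 in giant cells and 293, 329 and 230 in control cells with Pico. As with AT3G27400, control cells with One-Direct held its lowest samples. Over both kits its change was 2.40 with a pseudocount of 1 and 1.19 with 64, and that call was lost in 7 of 23 other settings. With One-Direct its change was 2.83 (limma adjusted p = 0.0302, lost in 11 of 24 other settings). With Pico, where the groups overlapped, it was 0.66 and did not pass (limma adjusted p = 0.624).

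The other acetylesterases AT3G05910 (1.05), AT3G09405 (1.17) and AT1G57590 (-0.15) did not pass (limma adjusted p from 0.103 to 0.814). Neither did the rhamnogalacturonan lyases AT4G37950 (0.33) and AT1G09910 (0.20), which cut the branched part of pectin (adjusted p = 0.739 and 0.742), nor GAUT15 (-0.30, adjusted p = 0.636), a galacturonosyltransferase-family gene and the only kept gene of the synthesis list. Of 38 synthesis genes, the other 37 were not analysed here.

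**Figure D4:**
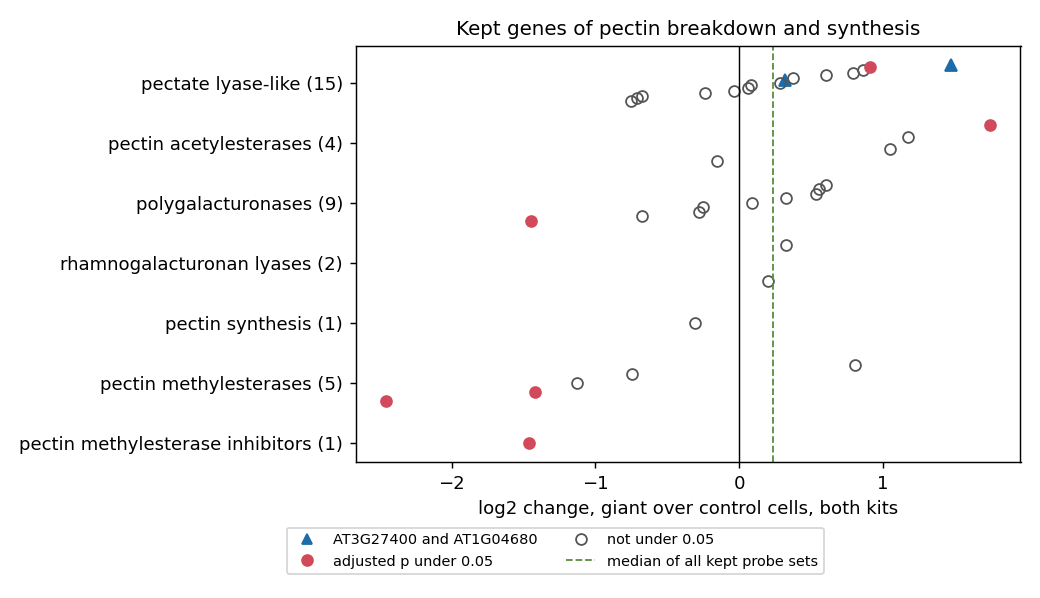
Log2 change of giant over control cells over both kits for the kept genes of 7 pectin lists, with the number kept in brackets; filled circles passed limma's test, open circles did not, and triangles are AT3G27400 (1.47), given without a test, and AT1G04680 (0.32), which did not pass. The dashed line is the median of all kept probe sets, 0.24. Among the 22 kept genes of the lists other than pectate lyase-like, 4 passed as lower, beside 9.04% of all probe sets. Pectin methylesterases and their inhibitor held 3 of these 4. Among these, AT1G02810 and PMEPCRF met the filter on dim signals only through control cells, so the count is not read as a result.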

How the data were processed

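The deposited values are linear signal intensity, 1 value for each of 22746 gene probe sets and 64 control probe sets on 20 arrays. Affymetrix Expression Console and MAS5 are named in the submitters' processing notes; the sources used here give no versions or background settings. Arrays were rescaled to a common mean after trimming 2% at each end, log2(signal + 16) was taken, and technical arrays were averaged, which left 3 samples per group. Probe sets above their array's median in at least 3 of 12 samples were kept (14652). Means of 4 groups were fitted with limma 3.58.1 in R 4.3.3 (lmFit, eBayes), with two-sided tests at 0.05 after Benjamini-Hochberg adjustment across all kept probe sets; the fit was tested on simulated data. The number of arrays limits the precision.

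Probe sets were named where the array's annotation lists 1 gene (13513; 503 listed several and 8730 were not listed), with locus tags from RefSeq's TAIR10.1 table. The 2 genes and the gene lists were chosen with earlier results of these data known. Named from each list were all kept genes where 5 or fewer were kept, otherwise the 4 with the smallest adjusted p between giant and control cells; for each of the 2 genes, the 5 most correlated were named. Samples were not paired by replicate number, because the labels do not say that the same number marks shared material. Among 18 pairs of the same number, correlations of deviations from group means ran from -0.06 to 0.14. Such correlations cannot show whether material was shared. Alternatives were other pseudocounts, scalings, filters, uses of technical arrays and weights, and samples left out.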

Additional observations from a re-analysis of the deposited data

How the results depend on the processing

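Over 23 other settings the giant cell change of AT3G27400 over both kits ran from 1.10 to 1.76 and its kit difference from -1.87 to -1.10, while the kit difference of AT1G04680 ran from -3.41 to -2.46, none changing sign. The giant cell change of AT1G04680 ran from -0.45 to 0.72 and passed limma's test in 0 settings; it was below 0 with sample quality weights (-0.17), without control One-Direct sample 1, and when sample 1 of each One-Direct group was left out. The replicate block left it at 0.32 (limma adjusted p = 0.727). Counts of called probe sets moved by over 1.5 times as follows, and the cause was not tested. Between kits, 5027 became 8220 with no filter on low values. For giant against control cells over both kits, 2868 became 1808 to 3965 with samples left out, lowest without giant Pico sample 3 and next without giant Pico sample 1 (1856). With One-Direct, 826 became 460 with the first technical array only, 414 with sample weights, 0 when fitted on its 6 samples alone, and 190 (without giant sample 2) to 1720 (without sample 1 of each group) with samples left out. With Pico, 1391 became 746 with quantile normalisation, 3898 with sample weights, 3056 when fitted on its 6 samples alone, and 725 (without giant sample 1) to 2505 (without sample 1 of each One-Direct group) with samples left out. The test of the difference between kits called 3 probe sets (1347 at an unadjusted p under 0.05); this became 0 with a pseudocount of 1 or 64, quantile normalisation, median centring, no filter or the first technical array only, 1 with a stricter filter, 29 with all 20 arrays, 22 with sample weights, and 0 to 53 with samples left out, highest without control One-Direct sample 2. Dim signal limits AT3G27400 in control cells with One-Direct, where 1 array read 2.87. Giant cell samples 2 and 3 with One-Direct also lay below their array's median for this gene, at percentiles 46.1 and 46.7.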
